A study of Homo sapiens with 4 samples.

Results

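The chaperones of the heat shock and DNAJ families were followed through an ATAC-seq experiment in HEK293T cells, in which open DNA is cut and tagged by the Tn5 transposase and the fragments that fall at each gene promoter are counted. The genes were the rows of the promoter table whose Entrez identifier belongs to a protein-coding gene with a symbol of the HSPA, HSPB, HSP90, DNAJA, DNAJB or DNAJC series, together with HSPD1, HSPE1 and HSPH1, and without a hyphen in the symbol. This gave 72 of the 28775 promoters in the table, namely 14 of the HSP70 series, 3 of the HSP90 series, 3 of the HSP110 and chaperonin group, 8 of the small heat shock protein series, 4 DNAJA, 12 DNAJB and 28 DNAJC genes. The symbol rule also took in HSPBAP1, a binding partner of a small heat shock protein that is not itself a chaperone. It is counted in the small heat shock protein series.

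HEK293T is an established line of human embryonic kidney cells that carries the SV40 large T antigen. All 4 libraries came from cells with an intact MORC2 gene, which encodes a chromatin-associated ATPase. The 2 control libraries were from cells given lipofectamine, a lipid transfection reagent, and nothing in the labels tells if a plasmid without insert went with it. The 2 overexpression libraries were from cells transfected with MORC2, which the study's methods describe as a fusion with a monomeric green fluorescent protein expressed from a plasmid, so effects of the transfected DNA and of the protein cannot be told apart. No label states that the replicates were separate cultures, so every p-value measures only the spread between these libraries, which may be technical. The comparison asks whether promoter accessibility differed between overexpression and control cells, and the mix of cells was measured in bulk, so fewer cells with an open promoter and a less open promoter in every cell cannot be told apart.

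Chaperones of the HSP70 family bind unfolded stretches of protein and release them in a cycle driven by ATP. DNAJ proteins (the HSP40 family) deliver substrates to HSP70 and stimulate its ATPase, nucleotide exchange factors such as HSPH1 reset it, and HSP90 acts later on clients such as kinases and steroid receptors. The chaperonin made of HSPD1 and HSPE1 folds proteins inside mitochondria, and the small heat shock proteins hold denatured proteins in solution without using ATP. Many of the cytosolic genes are switched on by heat shock factor 1 (HSF1), which binds repeats of a short unit in their promoters, whereas chaperones of the endoplasmic reticulum (ER) answer to the unfolded protein response.

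The promoters of 4 genes are shown first because they hold the full heat shock element, searched on both strands as 3 units in alternating orientation, GAANNTTCNNGAA or TTCNNGAANNTTC. RefSeq gave windows of 300 bases on GRCh38.p14, from 250 bases before each start to 50 after it, for 65 of the 72 genes, 84 windows in all. Each line below runs 5′ to 3′ on the gene's own strand over 120 bases ahead of the start, and capitals mark the 3-unit element. HSPA6, the strictly inducible HSP70, is at chr1:161524412-161524531, plus strand, and HSPA8, the constitutive cytosolic HSP70, at chr11:123062137-123062256, minus strand. A further HSPA8 element, 230 to 218 bases before the start, lies outside the stretch printed. HSP90AB1, the constitutive cytosolic HSP90, has 2 elements in its printed stretch and is at chr6:44247777-44247896, plus strand. DNAJB6, a DNAJ protein known to hold back polyglutamine aggregates, is at chr7:157336819-157336938, plus strand.
HSPA6: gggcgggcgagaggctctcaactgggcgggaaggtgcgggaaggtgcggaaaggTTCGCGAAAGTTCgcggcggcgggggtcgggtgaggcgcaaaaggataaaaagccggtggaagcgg
HSPA8: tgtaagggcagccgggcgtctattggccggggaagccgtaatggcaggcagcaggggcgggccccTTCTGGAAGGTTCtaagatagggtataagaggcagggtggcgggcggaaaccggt
HSP90AB1: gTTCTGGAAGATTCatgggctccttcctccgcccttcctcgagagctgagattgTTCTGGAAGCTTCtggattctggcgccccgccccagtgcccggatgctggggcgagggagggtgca
DNAJB6: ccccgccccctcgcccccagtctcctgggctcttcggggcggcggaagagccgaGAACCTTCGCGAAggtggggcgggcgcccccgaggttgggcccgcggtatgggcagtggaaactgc

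The 3-unit element was in 7 of 84 windows (8.33%), against 0.435% of 26222 windows of the same length over all genes in the table, and the remaining carriers were HSPD1, HSP90AA1 at a start that was not the counted one, and, after the start, DNAJA1. A shorter element of 2 units, GAANNTTC, which also lies inside the 3-unit form, was in 18 windows (21.4%) against 6.0% of all windows, and TTCNNGAA was in 13 (15.5%) against 7.07%. The next 2 promoters are shown because they carry only the shorter form in the stretch printed, marked in capitals. HSPA1A, at chr6:31815381-31815500, plus strand, and HSPA1B, at chr6:31827577-31827696, plus strand, encode the major stress-inducible HSP70.
HSPA1A: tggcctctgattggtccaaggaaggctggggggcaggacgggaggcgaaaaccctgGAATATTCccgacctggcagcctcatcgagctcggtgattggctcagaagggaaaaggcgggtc
HSPA1B: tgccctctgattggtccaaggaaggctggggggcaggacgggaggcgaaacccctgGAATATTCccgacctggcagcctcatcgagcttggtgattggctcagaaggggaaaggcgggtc

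HSPA5 and HSP90B1, which encode the ER chaperones BiP and GRP94, are shown because they were the members that held the ER stress element, a CCAAT box followed 9 bases later by CCACG, marked in capitals on whichever strand it was found. It was present in 2 of 84 windows (2.38%) against 0.0953% of all windows. HSPA5 is at chr9:125241344-125241463, minus strand, and HSP90B1 at chr12:103930270-103930389, plus strand. A second ER stress element of HSP90B1, 194 to 176 bases before the start, lies outside the stretch printed.
HSPA5: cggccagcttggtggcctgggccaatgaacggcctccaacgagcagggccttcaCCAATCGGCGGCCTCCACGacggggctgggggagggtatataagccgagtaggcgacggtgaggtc
HSP90B1: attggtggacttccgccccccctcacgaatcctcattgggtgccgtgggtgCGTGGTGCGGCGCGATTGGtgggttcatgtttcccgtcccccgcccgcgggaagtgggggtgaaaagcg

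The last 2 promoters belong to the members that passed the test of accessibility described below. The capitals mark a CCAAT box or its complement, which was in 33 of 84 windows (39.3%) and 34.7% of all windows. DNAJC3, a DNAJ protein of the ER lumen also called P58IPK, is at chr13:95677006-95677125, plus strand. DNAJB8, a DNAJ protein known from testis, is at chr3:128467021-128467140, minus strand.
DNAJC3: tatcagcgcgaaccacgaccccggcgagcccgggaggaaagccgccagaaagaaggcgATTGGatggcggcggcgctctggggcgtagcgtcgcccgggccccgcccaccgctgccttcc
DNAJB8: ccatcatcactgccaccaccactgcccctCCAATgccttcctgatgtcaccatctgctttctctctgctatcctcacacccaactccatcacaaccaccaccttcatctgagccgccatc

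A match of letters is a description and not a measured site, and for the 14 genes with more than 1 RefSeq window the labels do not tell which one belongs to the counted promoter. For 2 genes the counts bear on it. DNAJB1 had the counts of TECR, which starts 289 bases from 1 RefSeq start of DNAJB1 and 11163 and 11623 bases from those that hold a heat shock element, and HSP90AA1 had the counts of WDR20, which starts 148 bases from 1 of its starts and 52379 bases from the one that holds the element. Their printed values therefore go with starts that lack the element, and their heat-inducible promoters were not measured here. The counted promoters were windows on another assembly, T2T-CHM13, so the GRCh38.p14 stretches stand for the same genes and not for the same coordinates. Base composition differed among the members. Median GC content was 64.7% over the 84 member windows and 61.3% over all windows, and the median ratio of observed to expected CpG was 0.826 and 0.705. In the 20 windows of members with little signal GC content was 60.7%, with a CpG ratio of 0.535. In the 64 windows of members with much signal it was 65.3%, with a ratio of 0.870. No such split was made over all promoters, so whether it is particular to these genes was not tested. The letters TATAAA, on either strand and at any place in the window, were in 12 windows (14.3%, against 9.82% of all windows). Genes with such a match lay at a median percentile of 43.9 for control accessibility, whereas those without one lay at 78.5. A match began 28 to 32 bases before the start only in HSPA1A, HSPA1B, HSPB3, HSPB6 and HSPB7. In the other genes it began 89 to 240 bases before the start, so the percentiles describe a match of letters and not a placed TATA box.

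The control libraries held 10255182 and 8279528 counts in total, and those of the overexpression group 7211724 and 3734519. Promoters of the mitochondrial genome took 53.8 ± 2.60% of the counts in control and 74.2 ± 0.640% in overexpression (SD, n = 2), so the depth left for nuclear genes differed more than the totals do. The median member had 293 and 198.5 counts in the controls and 97 and 50.5 after overexpression. Of the genes used to check the line, VIM was at percentile 98.4 of control accessibility and NEFL at 69.6, while KRT8, KRT18, NEFM and PAX2 lay between 41.9 and 49.9. Among markers of other cell types PTPRC, CD3E and ALB were at percentiles 4.11 to 15.7, and APOA1 was at 63.8. HBB, the β-globin gene, had counts of 13 and 9 in control and 411 and 362 in overexpression, which set the libraries apart as labelled, and the source of these reads was not tested. The promoter of MORC2 does not report on a transfected copy, so the overexpression itself could not be checked here.

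Chaperone promoters took a steady share of the nuclear counts. It was 0.431% and 0.428% for control, then 0.430% and 0.403% for overexpression. Overexpression replicate 2, the shallowest, was lowest and overexpression replicate 1 lay inside the control range. Levels are given as CPM, that is counts scaled to a common depth, here by TMM, which aligns libraries on the bulk of promoters and not on their totals. Percentiles rank the mean CPM of the control libraries among all nuclear promoters of the table, and the 68 members kept by the filter on low counts had a median percentile of 78.0. Among the tested members the DNAJC series ran from DNAJC15 at percentile 18.9 to DNAJC3 at 99.2.

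**Figure D1:**
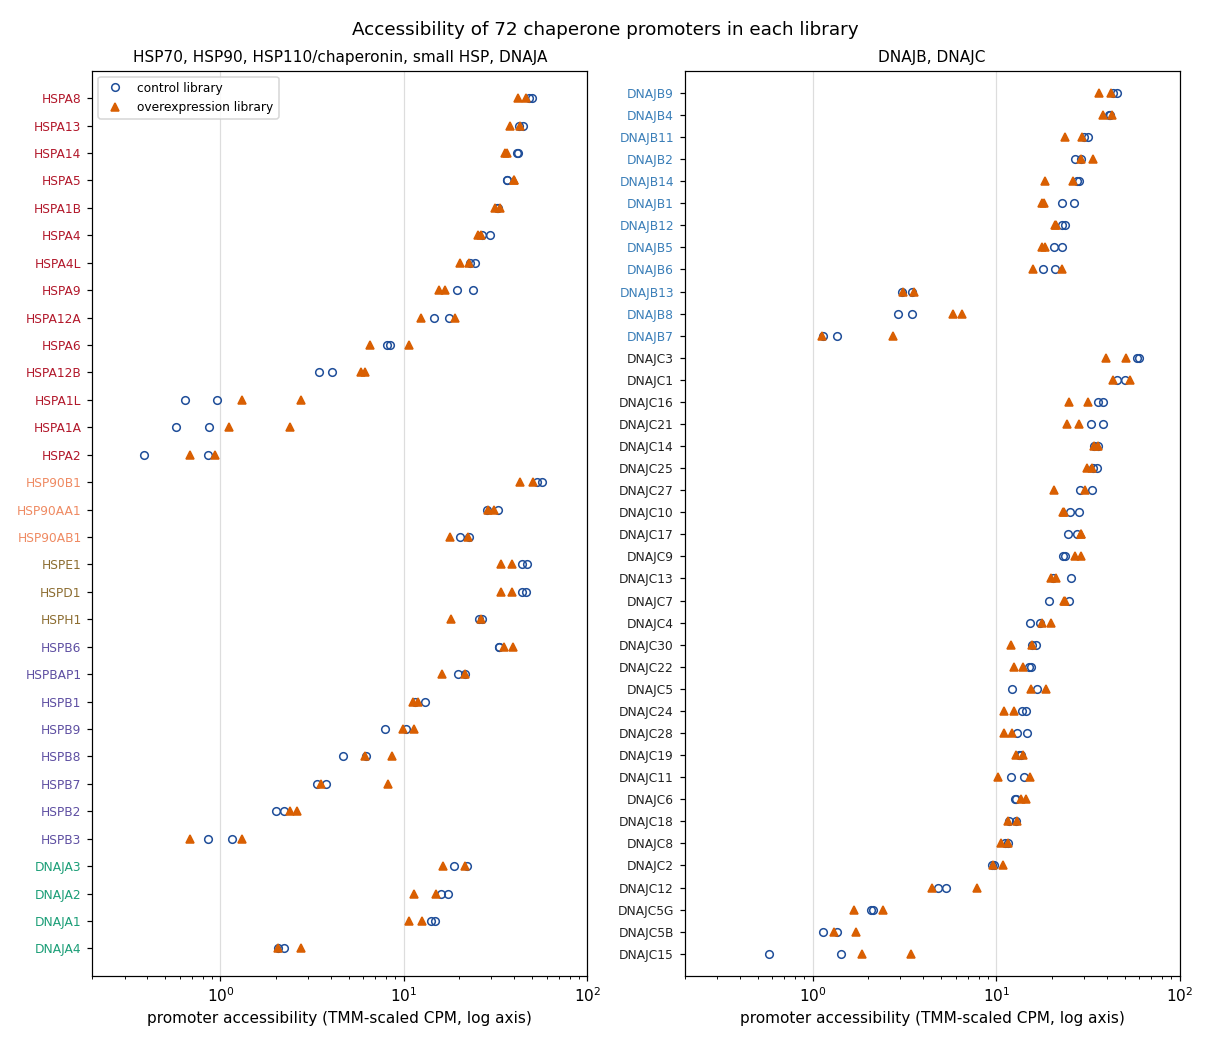
Accessibility of all 72 chaperone promoters in each library, as TMM-scaled CPM on a log axis, with 1 row per gene, open circles for the 2 control libraries and triangles for the 2 overexpression libraries. DNAJC3 has the highest level at a control mean of 59.2 CPM, and the symbols of the 2 groups lie close together in nearly every row above 10 CPM.

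The test compared the groups over all 23407 promoters kept by the filter, with edgeR's quasi-likelihood test and Benjamini-Hochberg adjustment. At an adjusted p under 0.05, 2 of 68 chaperone promoters (2.94%) passed, and over all promoters 2.47% passed. DNAJB8 rose, as 1.16% of all promoters did, and DNAJC3 fell, as 1.3% did. The share of members was therefore near that of promoters at large, and DESeq2 called no member and limma-voom called 2.

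DNAJC3 binds misfolded proteins in the ER lumen for BiP and was first described as an inhibitor of the interferon-induced kinase PKR. Its promoter drew 838 and 611 counts from the controls, then 272 and 116 after overexpression. In TMM-scaled CPM these were 59.7 and 58.7 against 50.7 and 39.7, and the groups did not overlap. The mean fell from 59.2 ± 0.682 to 45.2 ± 7.74 CPM (SD, n = 2). On the log2 scale this was -0.35 with an SE of 0.105, at an adjusted p of 0.0424. Overexpression replicate 2 was the lower of its pair, and the call was lost when any 1 library was left out, with adjusted p between 0.0591 and 0.502 and log2 fold changes from -0.58 (without overexpression replicate 1) to -0.23 (without overexpression replicate 2). The neighbouring non-coding gene DNAJC3-DT had almost the same counts, 832, 610, 271 and 116, so the accessibility cannot be assigned to 1 of the pair. The call was also lost when fold changes were centred on a curve over abundance (loess, log2 fold change -0.19).

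DNAJB8 is expressed mainly in testis and is one of the strongest known suppressors of polyglutamine aggregation. Its counts were 41 and 36 in control and 31 and 19 in overexpression. In TMM-scaled CPM these were 2.92 and 3.46 against 5.78 and 6.51, without overlap. The mean rose from 3.19 ± 0.382 to 6.14 ± 0.518 CPM (SD, n = 2). On the log2 scale this was 0.93 with an SE of 0.288, at an adjusted p of 0.0486. The raw counts were lower in both overexpression libraries, so the direction rests on the scaling for depth: scaled to library totals the log2 fold change was 0.14. Leaving out any 1 library ended this call as well, with adjusted p between 0.129 and 0.293, and under the loess centring the log2 fold change was 0.69.

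At an unadjusted p under 0.05, 4 members were higher (5.88%, against 8.66% of all promoters) and 8 were lower (11.8%, against 8.57%). Without regard to any model, both overexpression libraries lay above both control libraries for 10 members (14.7%, against 24.8% of all promoters) and below for 25 (36.8%, against 24.9%), and the groups overlapped for 33. The median log2 fold change was -0.05, with 39 members negative and 29 positive, and over all promoters it was 0.01, with 48.6% negative, but the sign depends on the scaling: with upper-quartile scaling the median was 0.03 for the members and 0.09 for all promoters, and scaled to library totals it was -0.85 and -0.78. Most members lay in the more abundant ranks, where promoters at large were also mostly negative. All tested promoters were split by average abundance into 4 bins of equal size. Among the 32 members in the highest bin the median was -0.15 and 24 were negative, and over all promoters of that bin it was -0.13 with 79.2% negative. In that bin 1 member fell, where 4.44% of all promoters fell, and 7 of 32 (21.9%) were lower at an unadjusted p under 0.05, where 23.2% of all promoters were. In the next bin the median was -0.14 over 19 members and -0.05 over all promoters, with 12 members and 60.6% of all promoters negative. In the 2 lower bins, by contrast, the 11 and 6 members had medians of 0.24 and 0.24, and all promoters had 0.13 and 0.39. The share of mitochondrial counts and the depth moved with the same contrast, and their part in these changes was not tested.

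**Figure D2:**
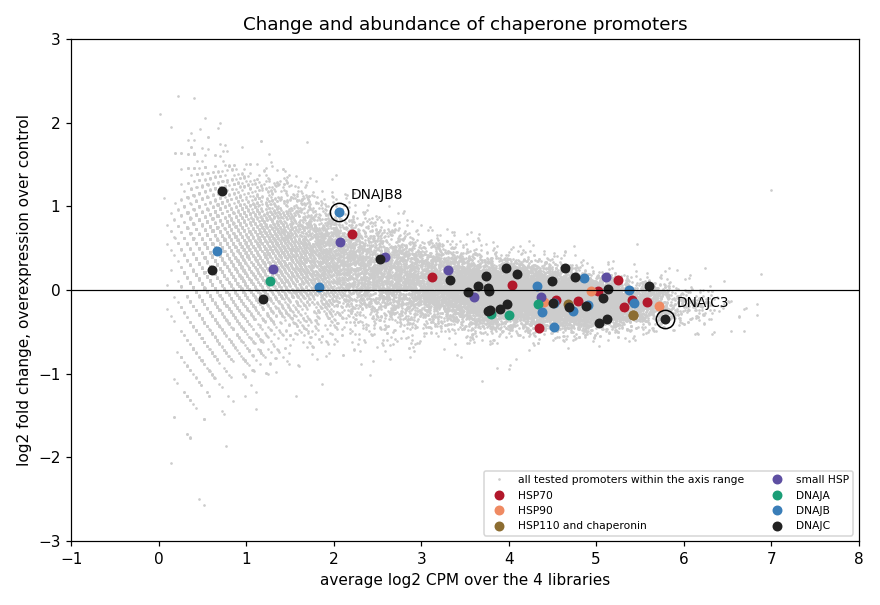
Fitted log2 fold change of overexpression over control against average log2 CPM over the 4 libraries, with grey points for all tested promoters (1 lies beyond the axes) and coloured points for the 68 tested chaperone promoters by class. The members lie inside the grey cloud, which slopes from positive values at low abundance to negative values at high abundance, and the circled points are DNAJB8 at 0.93 and DNAJC3 at -0.35.

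The HSP70 series was grouped by symbol alone and so with HSPA4 and HSPA4L. None of the 11 tested passed with edgeR, while 1 was higher and 1 lower at an unadjusted p under 0.05. HSPA8 had the most accessible promoter of the series, with counts of 705 and 499 against 247 and 122, and the log2 fold change was -0.15 (SE 0.108). HSPA5 (BiP) had counts of 515, 381, 213 and 116, and both overexpression libraries lay above both control libraries by a small margin, at 39.7 ± 0.0318 against 36.7 ± 0.0448 CPM (log2 fold change 0.12, SE 0.113, adjusted p = 0.633). HSPA9, the HSP70 of mitochondria, had counts of 334, 203, 83 and 49. It was lower in both overexpression libraries (16.1 ± 0.933 against 21.7 ± 3.03 CPM), at -0.46 on the log2 scale (SE 0.148), but the adjusted p was 0.0655. HSPA12B, a distant relative known from endothelium, had counts of 57, 36, 33 and 17, and its change of 0.67 on the log2 scale (SE 0.276) had an adjusted p of 0.174. HSPA6, which has a near-identical pseudogene copy, had counts of 113, 87, 57 and 19, with the 2 overexpression libraries on either side of the controls (log2 fold change 0.16, SE 0.210). The series' log2 fold changes ran from -0.46 to 0.67 with a median of -0.12, which was 0.03 under the loess centring.

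The stress-inducible pair HSPA1A and HSPA1B encode nearly the same protein from neighbouring loci, and the 250 bases before their starts, of which 120 are printed above, were 93.6% identical, with 14 mismatched and 2 gapped positions. Their counts were not alike. HSPA1B had 453 and 339 in control and 168 and 97 in overexpression, at percentile 91.3 of control accessibility. HSPA1A had 8 and 9 in control and 6 and 7 in overexpression, at percentile 13.1, and was not kept by the filter. The ratio of HSPA1B to HSPA1A was 56.6 and 37.7 for control and 28.0 and 13.9 for overexpression. These ratios rest on the few HSPA1A counts, so no difference between the groups can be read from them. HSPA1L, a testis HSP70 that starts next to HSPA1A in the opposite direction, had 9, 10, 7 and 8, within 1 count of HSPA1A in every library. Only reads placed with confidence were kept by the authors, which removes reads that match several loci, and how many were lost at either copy was not measured here, so the level of HSPA1A is uncertain. HSPA1B itself did not move beyond the replicate spread, at 32.4 ± 0.224 and 32.3 ± 1.36 CPM (SD, n = 2; log2 fold change -0.02, SE 0.120). HSPA2, a further testis HSP70, was also left out by the filter, with counts of 12, 4, 5 and 2.

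None of the 3 HSP90 genes passed at an adjusted or an unadjusted p under 0.05 with edgeR. HSP90B1 (GRP94) had counts of 749 and 586 against 273 and 126, and its log2 fold change was -0.19 (SE 0.105). HSP90AA1, the inducible cytosolic form, had counts of 456, 295, 167 and 84 and a log2 fold change of -0.02 (SE 0.123), which was 0.06 with upper-quartile scaling and 0.10 with loess centring, and HSP90AB1 had 318, 210, 96 and 65 with -0.14 (SE 0.141). Both cytosolic genes overlapped between the groups. HSP90AA1 shared its counts with WDR20, which had 455, 296, 166 and 85, so its value is that of their common start.

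HSPD1 and HSPE1, the mitochondrial chaperonin and its lid, are transcribed in opposite directions from 1 promoter and so were not independent. HSPE1 had counts of 655, 460, 209 and 99 and HSPD1 had 654, 459, 209 and 99. The shared promoter was lower in both overexpression libraries, at 36.4 ± 3.56 against 45.4 ± 1.73 CPM for HSPE1 (SD, n = 2; log2 fold change -0.30, SE 0.112), and did not pass at an adjusted p of 0.126. HSPH1, an HSP110 that resets HSP70, had counts of 373, 268, 142 and 53, overlapped between the groups and changed by -0.16 (SE 0.132).

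The small heat shock proteins, counted by symbol and so with HSPBAP1 (log2 fold change -0.09), were the class with a positive median after TMM scaling. It was 0.24 over 7 tested genes, 0.20 under the loess centring and -0.56 scaled to library totals. None of these genes passed at an adjusted or an unadjusted p under 0.05 with edgeR. They were also the least accessible class, at a median percentile of 53.7. HSPB1 (HSP27), the most widely expressed of them, had counts of 161, 135, 60 and 35 and overlapped between the groups (log2 fold change -0.08, SE 0.181). HSPB6, known from muscle, was highest, with counts of 465, 342, 189 and 115 and both overexpression libraries just above the controls (log2 fold change 0.16, SE 0.116), and it shared its counts closely with PROSER3 beside it. HSPB8, a partner of BAG3 in selective autophagy, had counts of 65, 65, 33 and 25 with 0.40 (SE 0.247), and HSPB7 of heart muscle had 47, 39, 19 and 24 with 0.57 (SE 0.293). In both genes the libraries of the groups overlapped. HSPB3, a muscle gene, had 12, 12, 7 and 2 and was not kept by the filter.

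Among DNAJA genes, the general co-chaperones closest in layout to bacterial DnaJ, none of 4 passed at an adjusted or an unadjusted p under 0.05 with edgeR. DNAJA1, the abundant cytosolic form, had counts of 208 and 146 in control and 67 and 31 in overexpression and was lower in both overexpression libraries (log2 fold change -0.29, SE 0.173, adjusted p = 0.374). DNAJA2 was similar at -0.30 (SE 0.161). DNAJA3, which works in mitochondria, had the highest level with counts of 310, 194, 88 and 63 and overlapped between the groups. DNAJA4 was lowest at 29, 23, 11 and 8.

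In the DNAJB series 1 of 12 passed, DNAJB8 as given above. DNAJB1, the main heat-inducible DNAJ partner of HSP70, came next, with counts of 322 and 276 in control and 98 and 52 in overexpression. At 18.0 ± 0.318 against 24.7 ± 2.54 CPM (SD, n = 2) it was lower in both overexpression libraries. The log2 fold change was -0.44 with an SE of 0.142, at an adjusted p of 0.0640. TECR, a fatty acid elongation enzyme, had counts of 321, 275, 98 and 52, so the value is that of the start beside TECR. DNAJB14, an ER membrane protein, had 385, 295, 140 and 54, and its change of -0.26 on the log2 scale (SE 0.131) had an adjusted p of 0.290, with overexpression replicate 2 below replicate 1 at 18.5 against 26.1 CPM. DNAJB9, induced by ER stress, had the highest level with 608, 473, 225 and 106, and its log2 fold change was -0.15 (SE 0.111). DNAJB6 overlapped between the groups, at 295 and 187 in control and 123 and 46 in overexpression (log2 fold change 0.05, SE 0.141). The testis gene DNAJB7 was lowest, with 16, 14, 6 and 8.

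**Figure D3:**
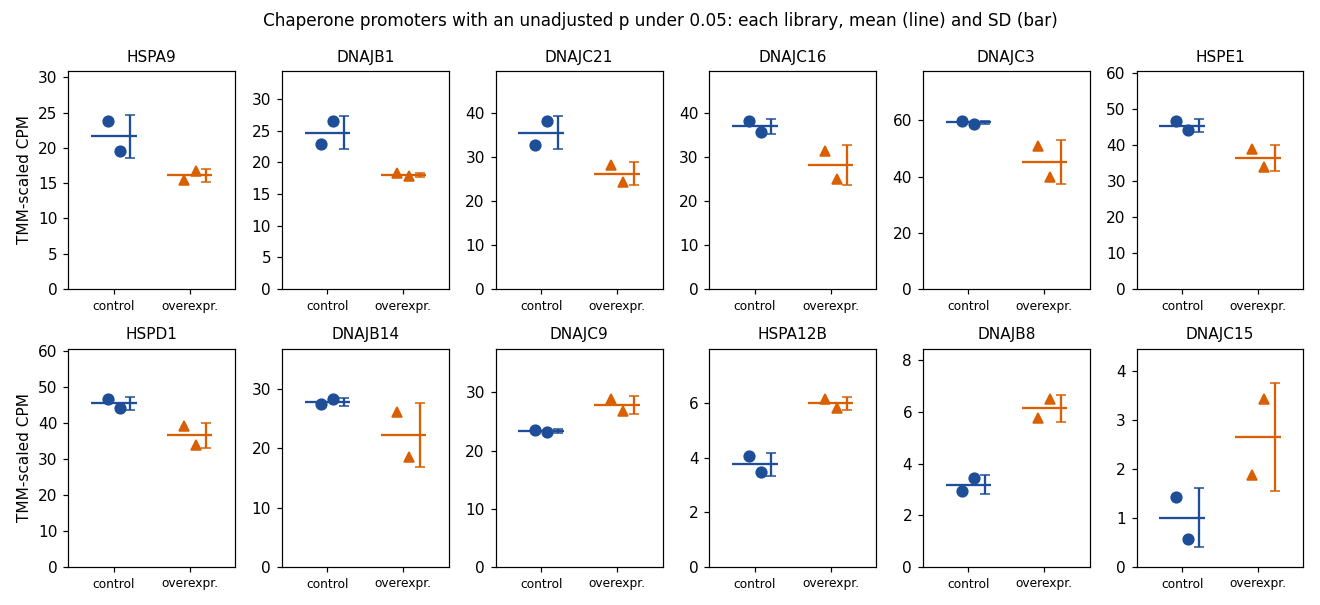
TMM-scaled CPM of the 12 chaperone promoters with an unadjusted p under 0.05, 1 panel per gene on its own axis from 0, with each library as a point, the group mean as a line and the SD (n = 2) as a bar. No panel has overlapping groups, and overexpression is lower for 8 genes and higher for DNAJC9, HSPA12B, DNAJB8 and DNAJC15.

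The DNAJC series is the most varied in function, and 1 of its 28 promoters passed, DNAJC3 as given above. DNAJC21, which acts in ribosome assembly, had counts of 461 and 397 in control and 151 and 71 in overexpression. It was lower in both overexpression libraries, at 26.2 ± 2.70 against 35.5 ± 3.76 CPM (SD, n = 2), and just missed the threshold at an adjusted p of 0.0508, its log2 fold change being -0.40 (SE 0.124). DNAJC16 had 537, 373, 169 and 73 with -0.35 (SE 0.121, adjusted p = 0.0830). DNAJC9, a chaperone that also binds histones H3 and H4, was higher in both overexpression libraries, with counts of 331, 241, 155 and 78, a mean of 27.8 ± 1.53 against 23.4 ± 0.292 CPM, and 0.26 (SE 0.129) on the log2 scale at an adjusted p of 0.263. DNAJC15, a protein of the mitochondrial import motor, had the largest fitted change of any tested member, 1.18 (SE 0.459, adjusted p = 0.138), but on counts of only 20, 6, 10 and 10. It had the lowest control mean of its series, its groups did not overlap, and its log2 fold change ran from 0.77 to 2.05 when 1 library was left out. DNAJC5, the cysteine string protein of synaptic vesicles, had 233, 126, 100 and 45 and overlapped between the groups (log2 fold change 0.26, SE 0.154). DNAJC7, a TPR protein that links HSP70 with HSP90, had 272, 260, 127 and 68 and overlapped as well (log2 fold change 0.11, SE 0.135). The 28 changes were split evenly, with 14 above and 14 below 0, and their median was -0.0037.

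**Figure D4:**
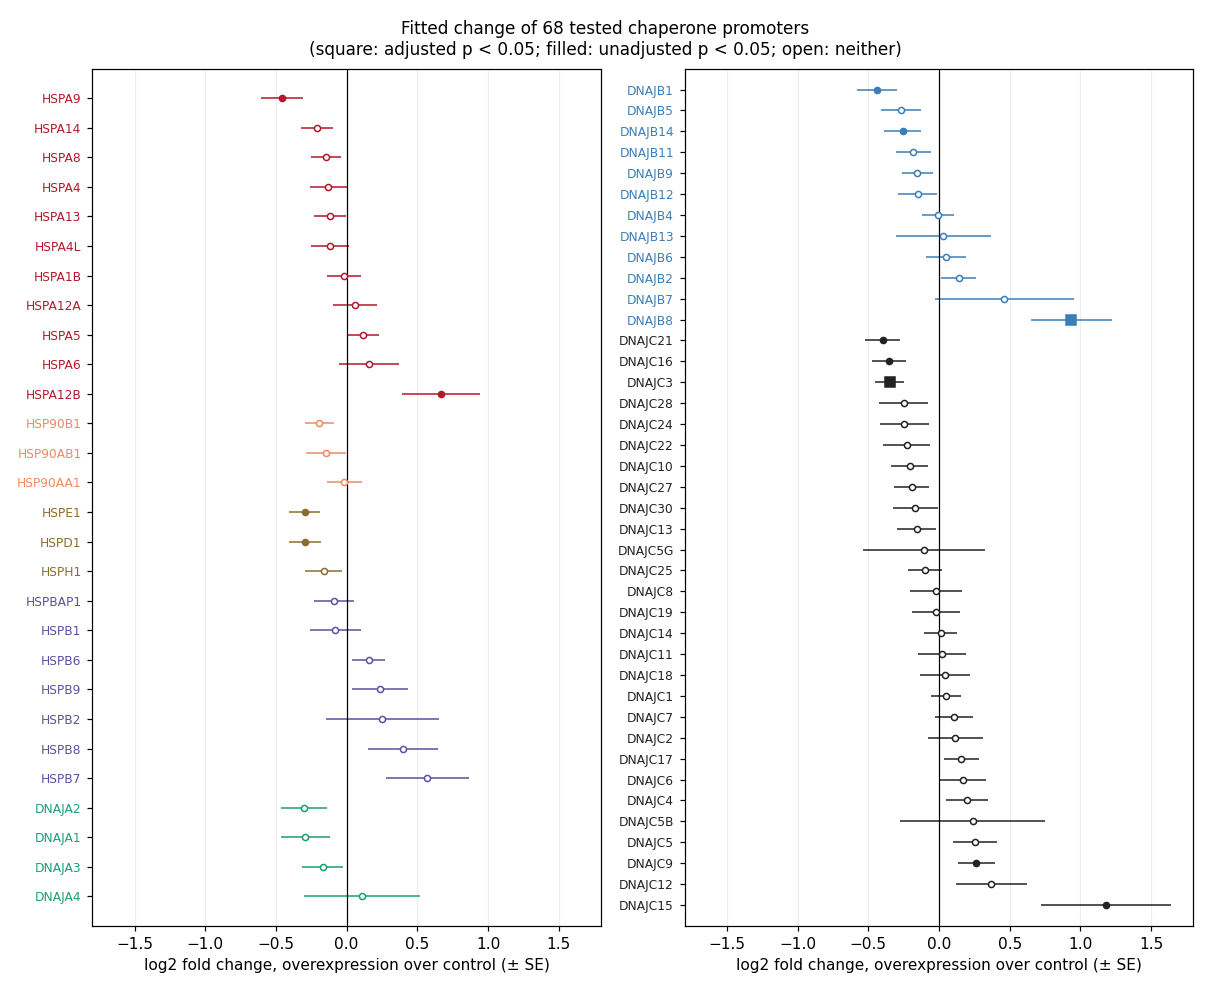
Log2 fold change of overexpression over control for the 68 tested chaperone promoters, sorted within each class, with bars of 1 SE from the edgeR fit; squares mark an adjusted p under 0.05, filled circles an unadjusted p under 0.05 and open circles neither. The squares are DNAJB8 at 0.93 and DNAJC3 at -0.35, and the widest bars belong to low-count genes such as DNAJC5B (SE 0.515) and DNAJB7 (SE 0.493).

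Grouped by the place where the proteins work, in groups drawn up after the values were known, 8 genes whose chaperone domain faces the ER lumen (HSPA5, HSPA13, HSP90B1, DNAJB9, DNAJB11, DNAJC1, DNAJC3 and DNAJC10, so without the cytosol-facing DNAJB12 and DNAJB14) had highly accessible promoters, at a median percentile of 96.9. Of these 1 fell (DNAJC3, 12.5%), where 1.3% of all promoters and 4.44% of those in the highest abundance bin did. Without overlap, 5 lay below (62.5%) and 1 above (HSPA5, 12.5%), where 24.9% and 24.8% of all promoters did. All 8 genes lay in the highest bin, for which the shares without overlap were not worked out, so that comparison is not like for like. The median log2 fold change was -0.17, and over all promoters of the highest abundance bin it was -0.13. The 8 mitochondrial genes (HSPA9, HSPD1, HSPE1, DNAJA3, DNAJC11, DNAJC15, DNAJC19 and DNAJC30) had the same median, -0.17, at a median percentile of 71.8, and none passed with edgeR. At an unadjusted p under 0.05, 1 was higher (DNAJC15) and 3 were lower (HSPA9 and the HSPD1 and HSPE1 pair), where 8.66% and 8.57% of all promoters were. The pair is 1 shared promoter, so the count of lower genes is not one of independent promoters. The 9 tested genes known from testis or muscle (HSPB2, HSPB6, HSPB7, HSPB9, DNAJB7, DNAJB8, DNAJB13, DNAJC5B and DNAJC5G) had a median percentile of 40.3 and a median log2 fold change of 0.24, with 8 positive. Among them 1 rose (DNAJB8, 11.1%), where 1.16% of all promoters did. Only 5 of them were positive with loess centring and 1 with library totals, and in the 2 lower abundance bins over all promoters 21.9% and 32.9% were negative. Scaled to library totals, the medians of the 3 groups were -0.97, -0.96 and -0.55, and with loess centring they were -0.02, -0.11 and 0.17.

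The 6 genes with the 3-unit heat shock element in a window, leaving out HSP90AA1, covered part of the range of the members. Their control percentiles ran from 52.0 (HSPA6) to 98.0 (HSPA8), against 10.9 to 99.2 for the other members with a window. Their log2 fold changes ran from -0.29 to 0.16 with a median of -0.15, against -0.46 to 1.18. None of the 6 was called with edgeR, while HSPD1 was lower at an unadjusted p under 0.05. Both overexpression libraries lay below both controls in 3 of the 6 and above in none, where 24.9% and 24.8% of all promoters did. HSPA5 and HSP90B1, which hold the ER stress element, moved by 0.12 and -0.19.

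Closely spaced genes share reads in this table. Of the 72 members, 22 had a gene within 3 places along the chromosome whose counts agreed within 10% or 2 counts in all 4 libraries. Besides those already named they included HSPA14 with CDNF, DNAJB4 with FUBP1, DNAJB9 with THAP5, HSPBAP1 with SLC49A4 and DNAJC25 with its read-through gene DNAJC25-GNG10. For such pairs the accessibility cannot be assigned to 1 of the genes. Between replicates, the log2 ratio over the 56 members with a mean count of at least 50 had an SD of 0.166 in control and 0.245 in overexpression, and between libraries of different groups it was 0.214 to 0.264. These SDs also carry counting error, which is larger in the shallower libraries. Set against counting error over promoters, the chi-square per degree of freedom was 1.25 and 1.12 within the groups and 1.71 to 1.95 between them.

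The wider chaperone network was described with 55 genes, namely heat shock factors, co-chaperones of HSP70 and HSP90, the cytosolic chaperonin TRiC, prefoldin, and the mitochondrial disaggregase and proteases. Of the 54 tested, none rose and 1 fell (1.85%), where 1.16% and 1.3% of all promoters did, so the share was near that of promoters at large. The gene was HSPBP1, a nucleotide exchange factor of cytosolic HSP70. It had 326 and 202 counts against 82 and 33, or 21.3 ± 2.69 against 13.3 ± 2.81 CPM (SD, n = 2), and on the log2 scale it moved by -0.64 (SE 0.154) at an adjusted p of 0.00641. Both overexpression libraries were below both control libraries, and HSPBP1 no longer passed without control replicate 1 (adjusted p = 0.196) or without overexpression replicate 2 (adjusted p = 0.201). At an unadjusted p under 0.05 a further 9 were lower and none was higher. These were HSF2, the co-chaperones SUGT1, PTGES3 and HYOU1, the TRiC subunits CCT2, CCT3 and CCT7, and CLPX and HTRA2 of the mitochondrial disaggregase and protease group. Their log2 fold changes ran from -0.55 (CLPX) to -0.23 (CCT3). The 10 together were 18.5% of the list, against 8.57% of all promoters. In the highest abundance bin 23.2% of all promoters were lower. That bin did not hold CCT2, CLPX, HSPBP1 or many other genes of the list, so its share is not a like comparison for the whole list. HSF1 itself had counts of 377, 252, 128 and 63, and its log2 fold change was -0.16 with an SE of 0.133 and an adjusted p of 0.571, and BAG3, its target and the partner of HSPB8, had -0.21 (SE 0.150). The median over the list was -0.13, which was -0.05 with upper-quartile scaling and -0.06 with loess centring, at a median percentile of 76.9, and 22 of 54 (40.7%) lay below without overlap, against 24.9% of all promoters.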

How the data were processed

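ATAC-seq was performed on HEK293T cells, with 2 control and 2 overexpression libraries. The authors trimmed the reads, aligned them with Bowtie2 to T2T-CHM13, kept confidently placed proper pairs, removed duplicates with Picard and counted fragment midpoints in a window around each annotated start. The deposited values are raw counts per promoter, 1 row per Entrez identifier, and no normalisation had been applied. The MACS2 peak lists were not used, since no T2T-CHM13 annotation was at hand to assign peaks to genes.

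Symbols were matched by Entrez identifier for 28763 of 28775 rows (12 unmatched). The 72 members and all lists were chosen with earlier results of these data known, the groups by cell compartment or tissue after the values were seen. Low counts were removed with filterByExpr, libraries were scaled by TMM, and edgeR 4.0.16 (quasi-likelihood F-test in its legacy form, under R 4.3.3) compared the groups over all promoters. Adjustment was by Benjamini-Hochberg and calls were made under 0.05. The common biological coefficient of variation was 4.28%. Genes were named if they passed the test or an unadjusted p of 0.05, were highest or lowest in their class, were not kept by the filter, shared a window with a neighbour, or belonged to a list of core chaperones. HSPB7, HSPB8, DNAJA2, DNAJC5B and the pathway genes HSF1 and BAG3 were added after their values were seen. Percentiles and CPM use the same scaling. Promoter windows were taken from RefSeq on GRCh38.p14 and searched on both strands.

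Replicates of a group differed by slightly more than counting error (chi-square per degree of freedom 1.25 in control and 1.12 in overexpression), so no library was a copy of another. The alternatives were other scalings (library totals, the size factors of DESeq2 1.42.0, loess on abundance, upper quartile), other filters, other tests (DESeq2, limma-voom 3.58.1, other edgeR forms), a replicate block, leaving out mitochondrial promoters and leaving out each library. The scripts were tested on simulated data. The result for 1 marker gene is not reported here.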

Additional observations from a re-analysis of the deposited data

How the results depend on the processing

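The calls were fragile. Of 68 chaperone promoters 2 passed, and the number was 57 (all lower, 83.8% against 69.7% of all promoters) when libraries were scaled to their totals, which count the mitochondrial reads and move the median of all promoters from 0.01 to -0.78, 1 with upper-quartile scaling (DNAJB8), 4 with the current edgeR form, 6 at an adjusted p under 0.1, and 0 with loess centring on abundance (0 also without mitochondrial promoters, an alternative chosen after seeing the data), for promoters averaging 50 counts or more, for those with 10 or more in each library, and with DESeq2 (0 also without its independent filtering, likewise chosen after seeing the data). Leaving out 1 library gave 0 calls each time; the lone sample of an arm was then assumed to vary like the other arm. DNAJB8 no longer passed without mitochondrial promoters or without a filter, where DNAJC21 and DNAJC3 passed. The median log2 fold change of the members was -0.85 when scaled to library totals, 0.028 with upper-quartile scaling and -0.014 with loess centring without mitochondrial promoters, and ran from -0.11 to -0.031 when 1 library was left out. It moved by less than the spread of those values without HSPBAP1.

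In the pathway list, where 1 gene passed, 51 did with library totals (94.4%, against 69.7% of all promoters). The number was 4 at an adjusted p under 0.1, 0 with either loess centring and 0 with either form of DESeq2. With library totals 11 named promoters with positive values turned negative, 4 of them without a call and 7 with one: DNAJB6 to -0.76, DNAJC5 to -0.54, DNAJC7 to -0.69, DNAJC9 to -0.53, HSPA5 to -0.68, HSPA6 to -0.65 and HSPB6 to -0.63. Over 41 named genes and 740 values under alternatives, 641 kept direction and side of the threshold, 18 changed sign without a call by less than their SE, 27 lost a call, 32 gained one and 15 moved without a call. The cause of these differences was not tested. Whether the replicate numbers pair the libraries could not be decided. Over 14976 promoters, r between the deviations of libraries sharing a number was 0.05. Replicates of a group differed by little more than counting error (chi-square per degree of freedom 1.25 in control and 1.12 in overexpression). Paired libraries could therefore also give a low r. A fit with the replicate block called the same genes as before, 2 members and 1 gene of the pathway list. The member median was then -0.05. With a median member count of 50.5 in the shallowest library, changes of low-count promoters were poorly resolved.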
